A study of Rattus norvegicus with 20 samples.

Results

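The growth arrest-specific genes Gas2, Gas1, Gas6 and Gas7 were followed across 4 groups of cultured rat islets. They were chosen by name, and Gas2 was chosen by its measured difference between islets given 2 nuclear receptors, Nr4a1 and Nr4a3, so that difference is described here without a test. The array holds 6 probe sets that the probe table assigns to 1 of these 4 genes alone, out of 31042 probe sets that are not controls: 1 each for Gas2, Gas1 and Gas7 and 3 for Gas6, which read the same gene. They are 4 of 14217 genes that the table names. All 6 were used, with no filter on low values.

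Islets came from male Wistar rats aged 8 weeks and were kept in medium with 10% serum and 8 mM glucose. They stayed untreated, or received an adenovirus for 18 h that carried green fluorescent protein (AdGFP), Nr4a1 (AdNr4a1) or Nr4a3 (AdNr4a3), and RNA was taken 48 h after the start, from 5 samples per group with 1 array each. The treatment protocol in the labels names other viruses, for beta-galactosidase and Nkx6.1, while titles, characteristics and the series design give the groups used here. The sources used here do not state which promoter drives a virus, how many cells it reached or which animals gave a sample. The sample titles call the 5 samples of each group biological replicates. What separates 1 replicate from the next is not stated, so a p reflects only how these 20 samples vary. The islet hormone genes were bright in all groups, with a mean of 14.96 (log2 intensity) for the insulin gene Ins1 in GFP arrays and 14.73 for the glucagon gene Gcg.

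The 4 genes share a name and not a protein family. They were first found as transcripts that accumulate when cultured cells stop dividing. Gas2 encodes a protein that binds actin filaments and microtubules and is cut by caspases in dying cells. Gas1 encodes a cell surface protein that assists the Hedgehog receptor and resembles receptors for the growth factor GDNF. Gas6 encodes a secreted, vitamin K-dependent ligand of the receptor kinases Tyro3, Axl and Mertk. Gas7 encodes an F-BAR protein, a class that bends membranes and organizes actin, and is best known from neurons. The delivered proteins are nuclear receptors without a known hormone, and each can bind DNA as a single molecule at an element called NBRE.

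In the RefSeq annotation of the rat build GRCr8, Gas2 lies on chromosome 1 from 110587952 to 110721572, Gas1 on chromosome 17 from 4487716 to 4490701, Gas6 on chromosome 16 from 82747676 to 82778090 and Gas7 on chromosome 10 from 52651690 to 52882244. The RefSeq promoter table for this build, which gives 250 bases before and 50 after a start site, matched Gas2 and Gas6. Both windows are shown because Gas2 was the member that moved most when either receptor was delivered, and Gas6 the one that differed in the other direction. Capitals mark the NBRE letters AAAGGTCA, searched on both strands, or, where there were none, the 6 letters AGGTCA that the NBRE contains. The windows are chr1:110618271-110618570, plus strand, for Gas2 and chr16:82747426-82747725, plus strand, for Gas6.
Gas2: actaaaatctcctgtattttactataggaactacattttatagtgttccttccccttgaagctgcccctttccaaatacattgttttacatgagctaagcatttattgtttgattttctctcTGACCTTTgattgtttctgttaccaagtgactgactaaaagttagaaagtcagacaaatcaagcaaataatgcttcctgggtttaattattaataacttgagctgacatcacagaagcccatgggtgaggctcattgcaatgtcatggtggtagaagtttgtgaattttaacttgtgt
Gas6: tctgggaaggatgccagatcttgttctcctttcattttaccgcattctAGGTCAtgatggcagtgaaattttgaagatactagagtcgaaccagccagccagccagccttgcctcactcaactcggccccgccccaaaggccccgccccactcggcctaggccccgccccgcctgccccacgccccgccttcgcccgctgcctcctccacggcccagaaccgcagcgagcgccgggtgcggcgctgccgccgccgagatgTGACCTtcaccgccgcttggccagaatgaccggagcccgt

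The Gas2 window held 1 NBRE match on the strand opposite to the gene, at -128 to -121 from the start site, where it reads TGACCTTT. Of 33469 windows of 300 bases in the table, 477 (1.43%) held this motif on either strand. The shorter AGGTCA was in 16.2% of windows, and the Gas6 window held it at -202 to -197 and, on the opposite strand, at 11 to 16. The start site of the Gas2 window lies inside the annotated gene, 30569 bases from its first base, and which transcript start islets use was not measured. A match of letters is a description, and no binding was measured.

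Gas2 was higher in every array of either receptor than in any control array. In the arrays labelled Nr4a1, the Gas2 probe set (1379452_at) read 10.97, 10.80, 10.84, 11.03 and 9.86 (log2 intensity, replicates 1 to 5). In those labelled Nr4a3 it read 9.11, 9.40, 9.22, 8.46 and 9.08, and in the GFP arrays 7.30, 7.09, 7.12, 7.18 and 7.03. The untreated arrays read 7.03, 6.89, 7.30, 7.45 and 6.99. The groups formed 3 levels that did not overlap: Nr4a1 on top, Nr4a3 between, and both controls together at the bottom. Means were 10.70 ± 0.48 (SD, n = 5), 9.05 ± 0.35, 7.14 ± 0.10 and 7.13 ± 0.23 in the order Nr4a1, Nr4a3, GFP and untreated. On the linear scale these are mean intensities of 1728, 544, 142 and 142.

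**Figure D1:**
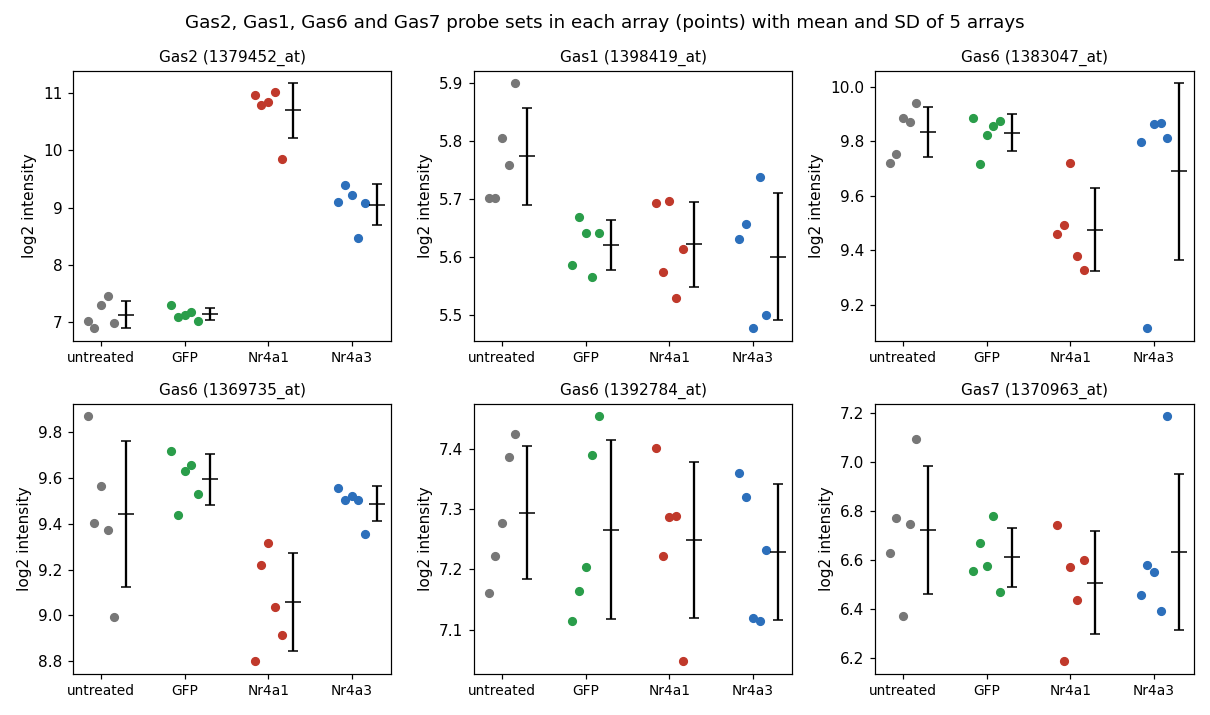
Log2 intensity of the 6 probe sets (vertical axes, each with its own range) in 20 arrays in 4 groups. Points are arrays in replicate order, and bars give the mean and SD of 5 arrays. Gas2 separates into 3 levels, with Nr4a1 arrays from 9.86 to 11.03, Nr4a3 arrays from 8.46 to 9.40 and control arrays from 6.89 to 7.45, while Gas1, Gas7 and the dimmest Gas6 probe set overlap among the virus groups.

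Against GFP, Gas2 rose 11.8-fold in the Nr4a1 arrays (log2 3.56 ± 0.19, SE, n = 5 per group, limma adjusted p = 1.79e-09) and 3.76-fold in the Nr4a3 arrays (log2 1.91 ± 0.19, limma adjusted p = 1.87e-05). These changes ranked 9 and 17 from the top among 31042 probe sets. Both comparisons use the same 5 GFP arrays, and both use arrays of the difference on which Gas2 was chosen. Both calls held in all 30 alternatives to the fit, with log2 values from 3.41 to 3.77 for Nr4a1 and 1.80 to 2.06 for Nr4a3. Directly between the receptors, Gas2 was 3.13-fold higher in the Nr4a1 arrays (log2 1.65 ± 0.19, 95% interval 1.25 to 2.04). This is the value that chose the gene, it ranked 20 from the top, and it lay between 1.497 and 1.855 in the alternatives. GFP and untreated arrays differed in Gas2 by 0.01 ± 0.19 (limma adjusted p = 1.0), with a 95% interval of -0.39 to 0.41. 

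The probe sets for the delivered receptors did not single out their groups. The Nr4a1 probe set differed from GFP by -0.07 ± 0.09 (log2, SE) in the arrays labelled Nr4a1, and the brightest Nr4a3 probe set by 0.19 ± 0.10 in the arrays labelled Nr4a3. That same probe set was higher in the arrays labelled Nr4a1, by 0.44 ± 0.10 (limma adjusted p = 0.0081). The sources used here do not say whether these probe sets can read the delivered transcripts. The order of Gas2 between the receptors thus rests on the labels, and would turn if those were exchanged. One array, Nr4a3 replicate 2, stood apart: between the 3' and 5' ends of beta-actin, a sign of RNA integrity, its controls differed by 4.62 (log2), against 1.497 to 2.21 in the other 19, and the value without it is given beside differences from GFP whose direction it turned. Its Gas2 value of 9.40 was the highest of its group.

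Acinar cells make the digestive enzymes of the pancreas and can adhere to isolated islets, and most of their markers, like Gas2, rose in the Nr4a1 arrays. Of 15 measured acinar genes, 11 rose in the Nr4a1 arrays and none in the Nr4a3 arrays, when 5.51% and 1.47% of 14217 genes rose. The acinar mean per array ranged from 9.72 to 10.90 in the Nr4a1 group, 8.69 to 9.50 in the Nr4a3 group, 6.84 to 9.20 in the GFP group and 6.93 to 10.10 in the untreated group (log2 intensity). Untreated replicate 5, with an acinar mean of 10.10 inside the Nr4a1 range, had a Gas2 value of 6.99, within the range of the other control arrays. Nr4a1 replicates 1 and 5 shared the highest acinar mean, 10.90, with Gas2 at 10.97 in the former and at 9.86, the lowest of the group, in the latter. A second sign of RNA integrity, the gap between the GAPDH controls at both ends, set the Nr4a1 arrays apart. It was 0.27 to 0.36 there, 0.50 to 0.74 in the GFP arrays, 0.41 to 0.72 in the untreated arrays and 0.41 to 0.57 in the Nr4a3 arrays other than replicate 2, and its part in the result was not tested. These are whole islets, in which a change in the number of cells of a type and a change in RNA per cell cannot be told apart.

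**Figure D2:**
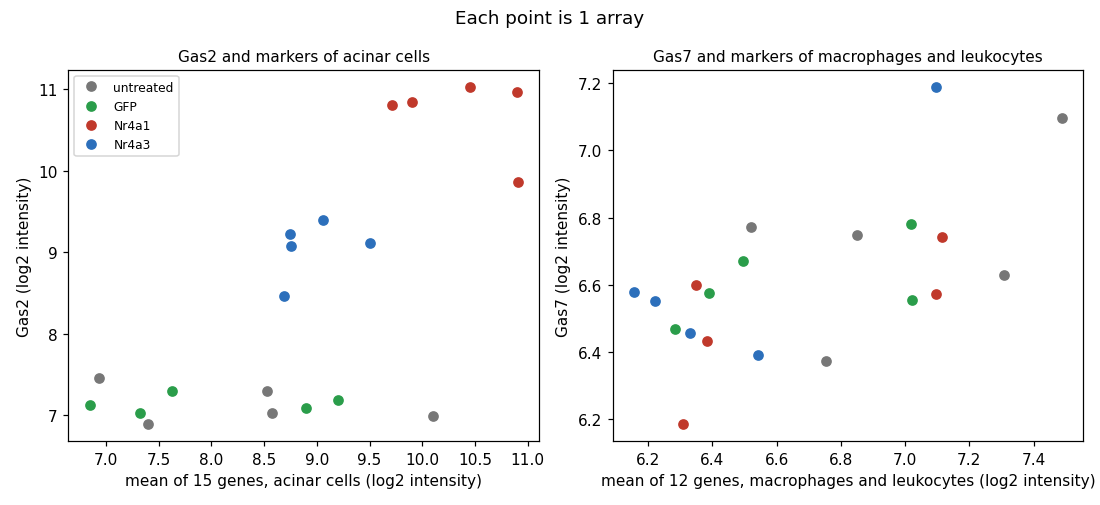
Gas2 (left) and Gas7 (right) log2 intensity against the mean log2 intensity of 15 acinar genes and of 12 macrophage and leukocyte genes, with 1 point per array coloured by group. Control arrays keep Gas2 between 6.89 and 7.45 over acinar means from 6.84 to 10.10, and the 2 arrays with the highest Gas7, at 7.09 and 7.19, have leukocyte means of 7.49 and 7.10.

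The genes with the pattern closest to Gas2 were Sh2b3, Fitm2, Gyg1, Trim16 and Tmem276. Sh2b3 encodes an adaptor that restrains cytokine receptor signalling, Fitm2 a protein of lipid droplet formation, Gyg1 the primer of glycogen synthesis and Trim16 a ubiquitin ligase of the tripartite motif class. They were picked for the highest Pearson correlation with Gas2 over 20 arrays, 0.976, 0.966, 0.966, 0.962 and 0.959 in that order, which is mostly a correlation between groups that all share the same arrays. For the deviations from the group means the correlations were 0.50, 0.58, 0.44, 0.42 and 0.28. Gyg1 was nearest to Gas2 in size in the Nr4a1 arrays and Trim16 in the Nr4a3 arrays. Gyg1 had log2 differences from GFP of 2.98 ± 0.17 (SE) in the Nr4a1 and 1.15 ± 0.17 in the Nr4a3 arrays. Sh2b3 differed by 1.51 ± 0.10 and 0.73 ± 0.10, Trim16 by 2.08 ± 0.16 and 1.36 ± 0.16. Each of the 5 had its highest group mean in the Nr4a1 arrays, its next in the Nr4a3 arrays, and control means at most 0.10 apart. The promoter table held 4 of these 5 genes, and the NBRE letters were in none of the 4 windows.

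**Figure D3:**
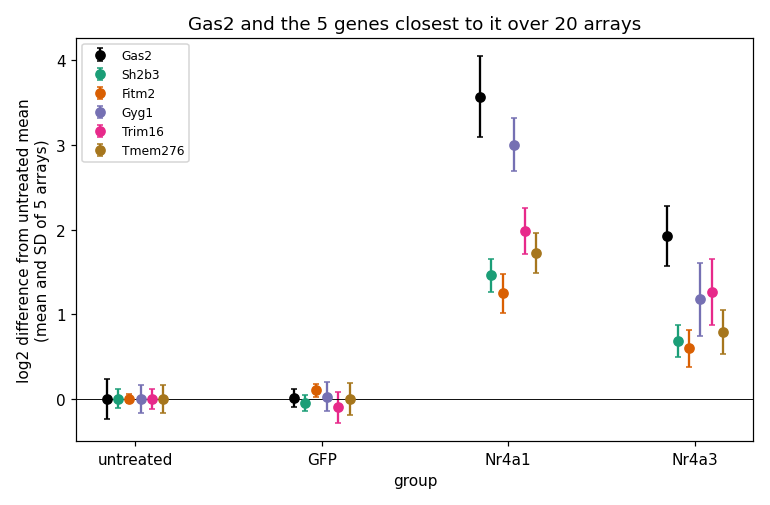
Log2 difference from the untreated mean (vertical axis) for Gas2 and the 5 genes with the highest correlation to it over 20 arrays, as mean and SD of 5 arrays in each of 4 groups. All 6 genes are highest in the Nr4a1 group and next highest in the Nr4a3 group, as their choice by correlation favours, with GFP near 0.

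Gas6 was lower in the Nr4a1 arrays on its brighter probe sets, and the sizes differed between them. On the probe set 1369735_at, Nr4a1 arrays read 8.80, 9.22, 9.32, 9.04 and 8.91, GFP arrays 9.72, 9.44, 9.63, 9.66 and 9.53, and Nr4a3 arrays 9.56, 9.51, 9.52, 9.51 and 9.36 (log2 intensity, replicates 1 to 5). All 5 Nr4a1 arrays lay below all GFP and all Nr4a3 arrays. The untreated arrays spread widely, at 9.87, 9.41, 9.57, 9.37 and 8.99. Replicate 5, the untreated array with the acinar mean of 10.10, fell inside the Nr4a1 range on 1369735_at. On the brightest Gas6 probe set (1383047_at) that array read 9.94 and on the dimmest (1392784_at) 7.42, each the highest untreated value. This probe set fell by 0.54 ± 0.13 (SE) on the log2 scale against GFP in the Nr4a1 arrays, to 0.69 of the GFP level (limma adjusted p = 0.0129). The call ended without Nr4a1 replicate 1 (limma adjusted p = 0.0521).

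The brightest Gas6 probe set, 1383047_at, read 9.46, 9.49, 9.72, 9.38 and 9.33 in the Nr4a1 arrays and 9.89, 9.72, 9.82, 9.86 and 9.88 in the GFP arrays. In the Nr4a1 group 4 of 5 arrays lay below all GFP arrays, and replicate 3 was level with GFP replicate 2 at 9.72. The log2 difference from GFP was -0.36 ± 0.12 (SE), and it missed the threshold (limma adjusted p = 0.0890). Leaving out Nr4a3 replicate 2 kept this difference and changed the spread that all groups share and the adjustment over all probe sets. The same difference then had a limma adjusted p of 0.00154. Without Nr4a1 replicate 3 the difference was -0.42, with an adjusted p of 0.0496. The Nr4a3 arrays read 9.80, 9.11, 9.86, 9.87 and 9.81, so that replicate 2 alone was low, and the untreated arrays 9.72 to 9.94. The difference between Nr4a1 and Nr4a3 arrays was -0.21 ± 0.12 (limma adjusted p = 0.557) with replicate 2 and -0.36 (adjusted p = 0.0244) without it. On 1369735_at the same comparison gave -0.43 ± 0.13 (limma adjusted p = 0.210), and -0.43 with an adjusted p of 0.208 without Nr4a3 replicate 2.

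The dimmest Gas6 probe set, 1392784_at, overlapped in all groups, with a range of 7.05 to 7.40 in the Nr4a1, 7.11 to 7.36 in the Nr4a3, 7.11 to 7.45 in the GFP and 7.16 to 7.42 in the untreated arrays. Its difference from GFP was -0.02 ± 0.09 (log2, SE) in the Nr4a1 arrays, with a 95% interval of -0.19 to 0.16 that leaves out the fall seen on 1369735_at. In the Nr4a3 arrays none of the 3 probe sets passed against GFP, at -0.14, -0.11 and -0.04 from the brightest to the dimmest. The first of these was 0.0026 ± 0.072 (SE) without Nr4a3 replicate 2. Endothelial cells are a known source of Gas6, and the mean of their markers was lower with both receptors than in the GFP arrays. Of 10 markers measured, 6 fell in the Nr4a1 arrays and 1 in the Nr4a3 arrays, when 2.05% and 0.0985% of 14217 genes fell. The 1 call in the Nr4a3 arrays was lost without replicate 1, 2, 3 or 4 of GFP or 3 or 5 of Nr4a3. The endothelial mean per array was 6.78 to 7.37 in the Nr4a1, 7.09 to 7.42 in the Nr4a3 and 7.47 to 8.13 in the GFP group. Of 11 beta cell markers 3 fell in the Nr4a1 arrays, or 6 without Nr4a3 replicate 2 and 5 without Nr4a1 replicate 3, with means of 11.21 to 11.59 against 11.66 to 11.80 in GFP. In the Nr4a3 arrays 1 of the 11 fell, when 0.0985% of 14217 genes fell. The beta cell means there ran from 11.14, in replicate 2, to 11.68. The part of either cell type in the Gas6 values was not tested. Genes closest to the brightest Gas6 probe set over 20 arrays were Otub2, Slc7a4 and Ypel3, with Pearson correlations of 0.926, 0.921 and 0.906. For the deviations from the group means these were 0.904, 0.899 and 0.958. Their lowest values of all 20 arrays, 7.42, 7.12 and 8.57, were in the Nr4a3 group. Their differences from GFP in the Nr4a3 arrays, -0.16, -0.19 and -0.12, turned to 0.04, 0.02 and 0.04 without Nr4a3 replicate 2. The part of that array in these correlations was not tested.

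Gas1 was dim, and none of its differences passed. Its probe set (1398419_at) ranged from 5.53 to 5.70 in the Nr4a1, 5.48 to 5.74 in the Nr4a3 and 5.57 to 5.67 in the GFP arrays (log2 intensity). Differences from GFP were 0.00091 ± 0.065 (SE) for Nr4a1 and -0.02 ± 0.07 for Nr4a3, with 95% intervals of -0.14 to 0.14 and -0.16 to 0.12. The untreated arrays, at 5.70, 5.70, 5.81, 5.76 and 5.90, all lay above the 5 GFP arrays, by a mean of 0.15. That difference did not pass over all probe sets (limma adjusted p = 1.0, unadjusted p = 0.0299). Its nearest genes over 20 arrays were Eln, which encodes elastin, Fli1, a transcription factor of endothelial and blood cells, and Htr6, a serotonin receptor gene, at correlations of 0.814, 0.784 and 0.775.

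Gas7 varied more within groups than between them. The values of its probe set (1370963_at) were 6.74, 6.19, 6.57, 6.43 and 6.60 in the Nr4a1, 6.46, 6.58, 6.55, 6.39 and 7.19 in the Nr4a3, 6.55, 6.67, 6.58, 6.78 and 6.47 in the GFP and 6.63, 6.77, 6.37, 6.75 and 7.09 in the untreated arrays. Single arrays, replicate 5 of the Nr4a3 and of the untreated group, stood highest. Differences from GFP were -0.10 ± 0.14 (log2, SE, limma adjusted p = 0.868) for Nr4a1 and 0.02 ± 0.14 (adjusted p = 0.960) for Nr4a3, and the second turned to -0.12 without Nr4a3 replicate 5. The high arrays also had high markers of other cells. Nr4a3 replicate 5 had the highest macrophage and leukocyte mean of its group, 7.10 against 6.16 to 6.54 in the other 4, and untreated replicate 5 reached 7.49 against 6.52 to 7.31. High leukocyte means did not always go with high Gas7: Nr4a1 replicates 1 and 3 had means of 7.12 and 7.10 with Gas7 at 6.74 and 6.57. In replicate 5 of the Nr4a3 and untreated groups the fibroblast and stellate cell means, 10.33 and 10.23, were the highest of all 20 arrays. None of the 12 macrophage and leukocyte or 13 fibroblast and stellate cell genes passed in any comparison of all arrays, nor did the 8 genes of other islet hormone cells, while 1 of 9 duct genes rose with each receptor and 1 of 8 nerve and glial genes with Nr4a1. Of 14217 genes, 5.51% rose with Nr4a1 and 1.47% with Nr4a3. Without Nr4a3 replicate 2, 1 gene each of the fibroblast, hormone, duct and nerve lists fell with Nr4a1, as did 1 of the hormone list without Nr4a1 replicate 3. The part of these cells in the Gas7 values was not tested. The genes nearest to Gas7 over 20 arrays were Srgn, the proteoglycan of blood cell granules, Mmp19, a matrix protease gene, and Gpx8, with Pearson correlations of 0.861, 0.855 and 0.820. Within groups these were 0.891, 0.847 and 0.865.

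**Figure D4:**
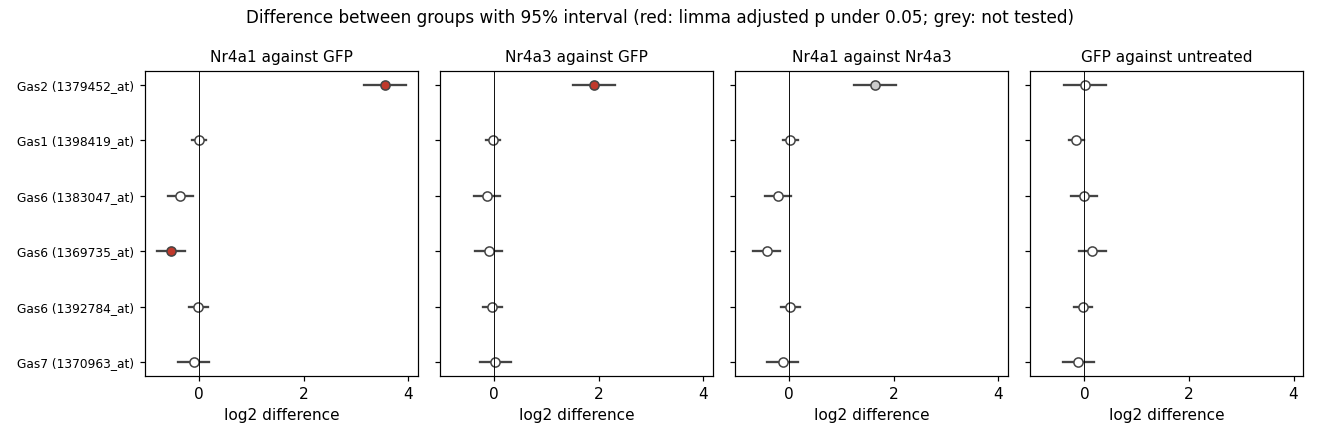
Log2 difference between groups (horizontal axis, first group minus second) for the 6 probe sets in 4 comparisons, with 95% intervals from the fit to 20 arrays. Red points passed at a limma adjusted p under 0.05 and the grey point was not tested because Gas2 was chosen on it. Gas2 lies at 3.56 and 1.91 against GFP, and 1 Gas6 probe set at -0.54.

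Of the 6 probe sets, 2 were called against GFP in the Nr4a1 arrays, Gas2 up and 1369735_at of Gas6 down, when 5.42% of all probe sets were called. In the Nr4a3 arrays Gas2 alone was called, against 1.06% of all. Between the receptors none of the 5 probe sets other than Gas2 was called by limma, against 0.387% of all. At an unadjusted p under 0.05, 1 of these 5 (1369735_at of Gas6) and 9.64% of all probe sets passed there. Between GFP and untreated arrays limma called none of the 6 and 0% of all, and at an unadjusted p under 0.05, 1 of the 6 (Gas1) and 3.75% of all passed. Without Nr4a3 replicate 2 the share of all probe sets called was 12.5% for Nr4a1 against GFP, 1.84% for Nr4a3 against GFP and 0.538% between the receptors.

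Genes that work with the 4 members were read on the brightest probe set of each gene. By that measure 5.51% of 14217 genes rose and 2.05% fell against GFP in the Nr4a1 arrays, and 1.47% rose and 0.0985% fell in the Nr4a3 arrays, with medians over all genes of -0.0013 and 0.0033 (log2). Between the receptors 0.528% were higher and 0.0211% lower in the Nr4a1 arrays, and against untreated islets 0% rose and 0% fell with GFP. Of 7 measured genes with the growth arrest-specific name or the Gas2-related domain, none rose and 1 fell in the Nr4a1 arrays (median 0.02), and 1 rose in the Nr4a3 arrays (median 0.02). The spectraplakin gene Dst, which links actin to microtubules and intermediate filaments, fell by 0.58 ± 0.14 (log2, SE, limma adjusted p = 0.0135) in the Nr4a1 arrays, all 5 below all GFP arrays, and lost its call without Nr4a1 replicate 1 (adjusted p = 0.0526). In the Nr4a3 arrays Dst differed by -0.22 ± 0.14 and, without Nr4a3 replicate 2, by -0.38 ± 0.09, which passed (limma adjusted p = 0.0275). Gas2l3, a Gas2-related gene of cell division, rose by 0.35 ± 0.08 in the Nr4a3 arrays (limma adjusted p = 0.0411). This call ended in 11 of 20 fits with 1 array left out, those without untreated replicate 2 or 4, GFP replicate 2, 3, 4 or 5, Nr4a1 replicate 1 or 2 or Nr4a3 replicate 1, 3 or 5 (adjusted p from 0.0519 to 0.126). Gas2l1 differed from GFP by 0.04 ± 0.18 and -0.16 ± 0.18, and the latter turned to 0.10 ± 0.07 without Nr4a3 replicate 2. Of 6 measured calpain and caspase genes, whose products cut Gas2 or are held back by it, none passed in any comparison, with medians of 0.12 for Nr4a1 and -0.06 for Nr4a3 against GFP. The mean of these genes was 8.81 in Nr4a3 replicate 2 and 9.21 to 9.26 in the other Nr4a3 arrays. Without replicate 2, the Nr4a3 differences of Capns1 and Casp9 turned from -0.26 and -0.03 to 0.21 and 0.11, and the others kept their direction.

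Around Gas6, 1 of 12 genes rose in the Nr4a1 arrays and none in the Nr4a3 arrays, with medians of -0.04 and 0.06 (log2). Without Nr4a3 replicate 2, 3 rose in the Nr4a1 arrays. The gene that rose in the fit to all arrays, Vkorc1l1, encodes an enzyme that recycles the vitamin K that Gas6 needs for its modification, and differed by 0.45 ± 0.13 (SE, limma adjusted p = 0.0385). The call was lost without any 1 GFP array or without Nr4a1 replicate 1, 2, 4 or 5 (adjusted p from 0.0560 to 0.106). Among the receptors, Mertk was at 7.86 to 8.26 in the Nr4a3 arrays, above all GFP arrays (7.21 to 7.84) and all Nr4a1 arrays (7.33 to 7.75), with untreated arrays at 7.18 to 8.11. Its difference from GFP of 0.64 ± 0.16 in the Nr4a3 arrays missed the threshold (limma adjusted p = 0.0592), and passed without untreated replicate 1 or 2, GFP replicate 4 or Nr4a3 replicate 4 (0.0311 to 0.0450). Tyro3 had the opposite lean, at 0.49 ± 0.15 in the Nr4a1 arrays (limma adjusted p = 0.0726) and 0.02 ± 0.15 in the Nr4a3 arrays, and passed in the first without Nr4a1 replicate 3 or Nr4a3 replicate 1 or 2 (0.0206 to 0.0391). Tyro3 was dim, at 5.13 to 5.69 in the Nr4a1, 4.57 to 5.53 in the Nr4a3 and 4.63 to 5.15 in the GFP arrays, which limits what its difference can show. Axl differed by -0.15 ± 0.13 and -0.28 ± 0.13, and Pros1, which encodes protein S, the other ligand of these receptors, by 0.03 ± 0.10 and 0.13 ± 0.10.

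Few of the Hedgehog and GDNF receptor genes around Gas1 passed. Of 21 measured, 1 rose and 1 fell in the Nr4a1 arrays and none in the Nr4a3 arrays, with medians of 7.97e-05 and 0.0061 (log2). The receptor kinase gene Ret, the signalling partner of GDNF receptors, fell by 0.59 ± 0.13 (SE, limma adjusted p = 0.0088) in the Nr4a1 arrays, 4 of 5 below all GFP arrays. Gfra1, which encodes the binding subunit for GDNF, rose by 0.35 ± 0.09 (adjusted p = 0.0292 with limma), but it missed the threshold (0.0686 to 0.104) when replicate 2 or 4 of GFP, or 1 or 4 of Nr4a1, was absent. The Hedgehog co-receptor genes Cdon and Boc and the signal transducer gene Smo differed from GFP by -0.08 ± 0.09, 0.03 ± 0.27 and 0.05 ± 0.14 in the Nr4a1 arrays. In the Nr4a3 arrays these differences were -0.09 ± 0.09, 0.29 ± 0.27 and -0.08 ± 0.14. Of 18 F-BAR and actin nucleation genes around Gas7, none passed in any comparison, with medians of -0.04 for Nr4a1 and 0.02 for Nr4a3 against GFP.

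**Figure D5:**
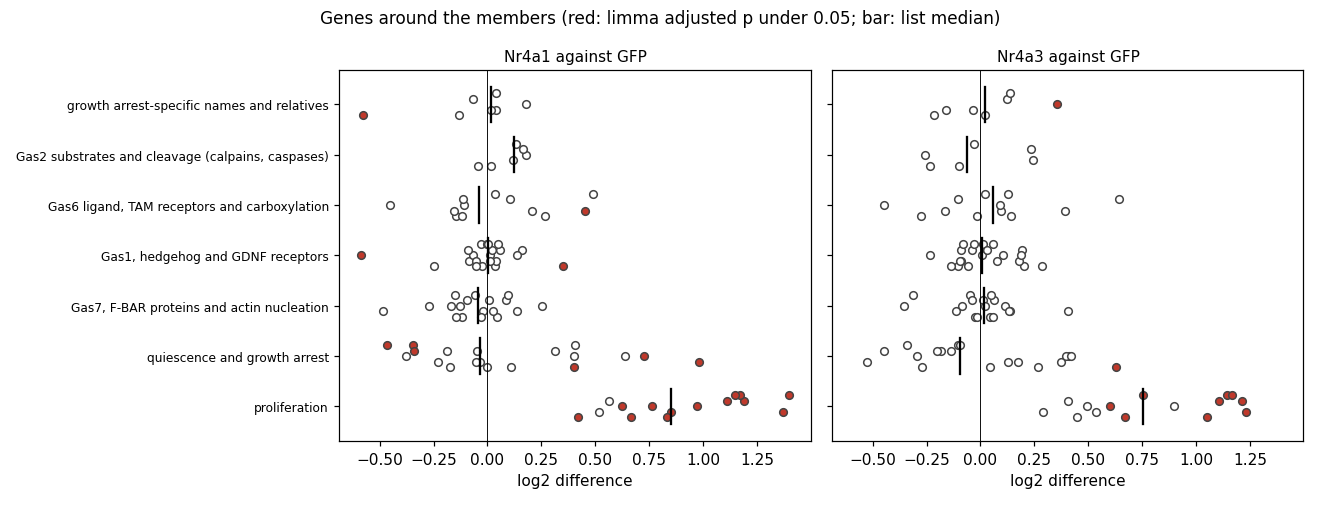
Log2 difference from GFP (horizontal axis) of the measured genes of 7 lists in the Nr4a1 (left) and Nr4a3 (right) arrays, with 1 point per gene, a bar at the list median and red for a limma adjusted p under 0.05. Proliferation genes lie to the right of 0 in both panels, with medians of 0.85 and 0.75, and the lists around the 4 members centre near 0.

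Gas2 was high in arrays in which genes of dividing cells were high too. Of 15 proliferation genes 13 rose in the Nr4a1 arrays (median 0.85) and 9 in the Nr4a3 arrays (median 0.75), and none fell. In the Nr4a1 arrays Nuf2, Ccnb1, Birc5, Ccne1, Ube2c and Mcm3 had the smallest adjusted p, from 0.00039 to 0.0023 with limma, and in the Nr4a3 arrays Ccne1, Nuf2, Ube2c, Cdk1, Aurkb and Mcm3, from 0.000517 to 0.0425. With 1 array left out, Ccne1 and Nuf2 kept the Nr4a3 call in all 20 fits, Ube2c, Cdk1 and Aurkb lost it in 6 fits each and Mcm3 in 14 (limma adjusted p up to 0.115). The 9 calls became 2 without any 1 of GFP replicates 1, 2, 3 and 5 and Nr4a3 replicates 1 and 3, and 5 without untreated replicate 2 or 4, Nr4a1 replicate 2 or 4 or Nr4a3 replicate 5. Between the receptors, where Gas2 differed by 1.65, none of the 15 passed with limma and their median difference was 0.13. Other genes of growth arrest went both ways in the Nr4a1 arrays, with 3 of 19 up, or 5 without Nr4a3 replicate 2, 3 down and a median of -0.04. Cdkn2d, which encodes the CDK4 and CDK6 inhibitor p19, rose by 0.98 ± 0.11 (log2, SE, limma adjusted p = 9.69e-06), and Tob1, an antiproliferative gene, by 0.73 ± 0.11. Tob2 fell by 0.34, and Cdkn1b, Foxo3 and Cdkn1c, at -0.34, -0.47 and 0.40, lost their calls in 13, 6 and 13 of the 20 fits with 1 array left out (limma adjusted p up to 0.134). These fits left out any GFP or any Nr4a1 array, untreated replicate 4 or Nr4a3 replicate 4 or 5 for Cdkn1b, and GFP replicate 2, 3 or 5 or Nr4a1 replicate 1, 2 or 3 for Foxo3. For Cdkn1c they left out untreated replicate 1 or 2, GFP replicate 1, 2, 3 or 4, any Nr4a1 array, or Nr4a3 replicate 3 or 5. In the Nr4a3 arrays Cdkn1c, the gene of the inhibitor p57, was the 1 of 19 that rose, by 0.63 ± 0.12 (limma adjusted p = 0.0083). Cdkn2d was also the single listed gene of all 7 lists that differed between the receptors. It was higher by 0.61 ± 0.11 in the Nr4a1 arrays (limma adjusted p = 0.0105), the direction of Gas2. Of 14217 genes, 75 (0.528%) were higher and 3 (0.0211%) lower there, so most genes called had this direction. The call of Cdkn2d ended in the fit to only the 10 arrays compared (limma adjusted p = 0.20) and as the mean of its probe sets (0.64, adjusted p = 0.0515). All 5 Nr4a1 arrays, at 9.22 to 9.80, lay above all 5 Nr4a3 arrays, at 8.70 to 8.99, and the GFP arrays read 8.32 to 8.73.

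Over the 7 lists, of 7, 6, 12, 21, 18, 19 and 15 measured genes, 23 genes were called in the Nr4a1 arrays and 11 in the Nr4a3 arrays against GFP. Proliferation genes made up 13 of the 23 and 9 of the 11. Of 14217 genes, 5.51% rose and 2.05% fell in the Nr4a1 arrays, and 1.47% rose and 0.0985% fell in the Nr4a3 arrays. Of the 23 and 11 called, 12 and 3 kept the call in every fit with 1 array left out. In the Nr4a3 arrays the count moved to 3 to 7 without untreated replicate 2 or 4, GFP replicate 1, 2, 3 or 5, Nr4a1 replicate 1, 2 or 4 or Nr4a3 replicate 1, 3 or 5, and in the Nr4a1 arrays to 14 without Nr4a1 replicate 1.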

How the data were processed

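Per the submitters' processing notes, the authors made the deposited probe set intensity values with RMA, whose version the sources used here do not give, and the values are on a linear scale. RMA corrects background, sets arrays to 1 distribution and summarizes probes, which compresses changes of dim and of very bright transcripts. The number of arrays limits the precision, and detection calls were not used here. Values were log2-transformed.

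Probe sets were named through the platform's probe table. Of 31042 probe sets without controls, all were fitted with limma 3.58.1 in R 4.3.3, with 1 mean per group over all 20 arrays and 16 residual and 3.65 prior degrees of freedom. Tests were two-sided and adjusted over all probe sets by the Benjamini-Hochberg method, and a call is an adjusted p under 0.05. The fit was tested on simulated data. Listed genes (184 of 210 entries measured, in 7 pathway and 8 cell type lists) used the brightest probe set of 14217 genes. Named were all called list genes up to 6 per list and comparison, a few receptors, and the genes most correlated with a member. Members and lists were chosen with earlier results of these data known. Alternatives changed the samples fitted, the replicate block, variance, array weights, scaling, log offset, dim filter and probe set rule, and left out each array.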

Additional observations from a re-analysis of the deposited data

Results flagged for a closer look

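In 4 of 24 sets of 5 arrays, 1 array lay far from the other 4 by Dixon's test, which flags about 1 in 20 such sets by chance. Gas2 read 9.86 in Nr4a1 replicate 5, with the next array at 10.80, and that gap was 0.805 of the range of its group. The brightest Gas6 probe set, 1383047_at, read 9.11 in Nr4a3 replicate 2, with the next at 9.80 and a gap of 0.907 of the range. The probe set 1369735_at of Gas6 read 9.36 in Nr4a3 replicate 5, with the next at 9.51 and a gap of 0.752. Gas7 read 7.19 in Nr4a3 replicate 5, with the next at 6.58 and a gap of 0.764.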

How the results depend on the processing

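The Gas2 rises against GFP kept their direction and call in all 30 alternatives. Gas6 on its brightest probe set, at -0.36 against GFP in the Nr4a1 arrays and not called, was called in the fit to only those 10 arrays (-0.36), with array weights (-0.34), and as the mean of the Gas6 probe sets (-0.30). With single arrays left out it ran from -0.42 to -0.32 and was called in 2 of 20 fits, those without Nr4a1 replicate 3 or Nr4a3 replicate 2. With array weights its difference between the receptors was called (-0.34). Without single arrays it was -0.36 to -0.17, called only without Nr4a3 replicate 2. Values near 0 that missed the threshold changed sign. With array weights these were Gas1 in Nr4a1 against GFP (-0.011), Gas6 on 1392784_at in the same comparison (0.0081), brightest Gas6 in Nr4a3 against GFP (0.0061) and Gas2 in GFP against untreated (-0.0071). With median centring they were Gas1 in Nr4a1 against GFP (-0.0021) and Gas6 in GFP against untreated (0.0049), the last at 0.040 as a mean of probe sets. With single arrays left out, Nr4a1 against GFP gave -0.018 to 0.024 for Gas1 and -0.054 to 0.034 for 1392784_at. Nr4a3 against GFP gave -0.055 to 0.011 for Gas1, -0.19 to 0.0026 for brightest Gas6, -0.074 to 0.011 for 1392784_at and -0.12 to 0.084 for Gas7. Nr4a1 against Nr4a3 gave -0.0098 to 0.055 for Gas1, -0.018 to 0.070 for 1392784_at and -0.19 to 0.012 for Gas7. GFP against untreated gave -0.048 to 0.093 for Gas2, -0.031 to 0.026 for brightest Gas6 and -0.076 to 0.0089 for 1392784_at.

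The 11 listed genes called in Nr4a3 against GFP became 4 in the fit to those 10 arrays, 21 with array weights and 3 to 16 without single arrays, and the 23 in Nr4a1 against GFP 14 to 28. The 1 between the receptors became 0 in the fit to those 10 arrays, 0 as a mean of probe sets and 2 with array weights. Whether equal replicate numbers mark paired arrays is not stated, and 5 correlations per comparison cannot decide it. Correlations of same-numbered deviations ran from -0.17 to 0.05 for Nr4a1 with GFP and from -0.12 to 0.16 for Nr4a3 with GFP. They ran from -0.22 to -0.0033 for Nr4a1 with Nr4a3 and from -0.16 to 0.32 for GFP with untreated. For Nr4a3 with GFP and for GFP with untreated, 1 of 5 pairs each was over 0.1. With the replicate block the 11 became 6, and no other count moved by over 1.5 times. The cause of these moves was not tested. Gas1 and Gas7 have no value under the filter on dim probe sets. Dim probe sets such as Gas1 limit what a difference near background can show.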
